A study of Homo sapiens with 10 samples.

Results

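The microRNAs miR-146 and miR-155, best known as products of inflammatory signalling, were followed across the knockdown of 3 RNA-binding proteins in ES-2 cells, as the main arms hsa-miR-146a-5p, hsa-miR-146b-5p and hsa-miR-155-5p. They are 3 of the 2576 mature miRNAs of the deposited table, and all 3 were among the 1196 miRNAs with a read in any library and the 889 miRNAs that entered the test. They were chosen by name as miRNAs induced through NF-kB, with the higher level of miR-146a-5p after IGF2BP2 knockdown in these same libraries already known. The comparison of IGF2BP2 knockdown with the control is therefore given as a description and without a test. So is the level of miR-146a-5p where IGF2BP2 knockdown is compared with another knockdown.

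miR-146a and miR-146b are transcribed in response to NF-kB, the transcription factor that toll-like receptors and inflammatory cytokines switch on, and they repress the adaptors TRAF6 and IRAK1 that carry the signal towards NF-kB, which makes them part of a negative feedback loop. miR-155 is cut from the transcript of MIR155HG, also called BIC, and is known in lymphocytes, macrophages and several tumours. Its known targets include SOCS1, an inhibitor of cytokine signalling, and INPP5D, a phosphatase that limits PI3K signalling. Much of what is known of them comes from immune cells, although epithelial and tumour cells also produce them.

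ES-2 is a human cell line derived from ovarian cancer, grown here with serum. The study used control siRNAs (siC, 2 libraries) or a pool of siRNAs against IGF2BP1 (siIGF2BP1, 2 libraries), IGF2BP2 (siIGF2BP2, 3 libraries) or IGF2BP3 (siIGF2BP3, 3 libraries). IGF2BP1, IGF2BP2 and IGF2BP3 are paralogous proteins that bind mRNAs and act on their stability and translation. The series' design text calls the cells transfected, while the labels' treatment field speaks of seeded parental cells, and the time between transfection and harvest is not stated in those sources. The mRNAs of the 3 targets are not measured by a small RNA library, so the knockdowns themselves were not checked.

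The mature sequences show how the 3 miRNAs relate to each other. All 3 were matched by name in RefSeq (GRCh38.p14); they are written 5′ to 3′, and the capitals mark the seed, bases 2 to 8, which pairs with target mRNAs.
miR-146a-5p: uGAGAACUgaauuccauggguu
miR-146b-5p: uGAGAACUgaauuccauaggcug
miR-155-5p: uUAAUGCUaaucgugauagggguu
miR-146a-5p (22 bases) and miR-146b-5p (23 bases) had the same seed and the same first 17 bases. Counted from 1 at the 5′ end, they differed by G18A and U21C, with miR-146a-5p as the reference, and by 1 extra base at the 3′ end of miR-146b-5p. Reads of the pair can therefore be told apart only by their last bases, and how mismatches were counted is not given in the sources used here. Of 2370 mature miRNAs searched, 1 other, miR-7153-5p, had the seed of the pair, and it had no read in any of the 10 libraries. No other miRNA searched had the seed of miR-155-5p (24 bases).

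The 3 loci are separate. In GRCh38, miR-146a-5p lies at chr5:160485372-160485393 on the plus strand, in exon 2 of the long non-coding RNA MIR3142HG (GENCODE 29). miR-155-5p lies at chr21:25573983-25574006 on the plus strand, in exon 4 of the long non-coding RNA MIR155HG. miR-146b-5p lies at chr10:102436520-102436542 on the plus strand and overlaps no other annotated gene; its neighbours are CUEDC2 at a distance of 3859 bases and RPARP-AS1 at 13275 bases. The deposited table gives hg19 as its build and holds no coordinates, so these positions describe the miRNAs and were not joined to the measurements by position.

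The 2 members of the miR-146 pair come from different precursors. The RefSeq hairpins show this, with the 5p arm in capitals (99 bases at chr5:160485352-160485450 and 73 bases at chr10:102436512-102436584, both on the plus strand).
MIR146A hairpin: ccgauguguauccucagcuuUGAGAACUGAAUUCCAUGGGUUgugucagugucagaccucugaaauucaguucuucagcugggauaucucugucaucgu
MIR146B hairpin: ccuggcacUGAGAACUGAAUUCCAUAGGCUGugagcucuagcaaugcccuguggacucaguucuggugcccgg
Nearly all reads came from the 5p arms. Over the 10 libraries miR-146a-5p had 4090 reads and its partner miR-146a-3p 6 reads, a ratio of 682 to 1. The ratio was 79.9 to 1 for miR-146b (1757 and 22 reads) and 4920 to 1 for miR-155 (54116 and 11 reads). The 3p arms had at most 2, 4 and 5 reads in a library, too few to compare between groups, and with limma 0 of the 3 passed in the comparisons of siIGF2BP1 or siIGF2BP3 with siC and of siIGF2BP2 with siIGF2BP3 (0, 1 and 0 had an unadjusted p under 0.05); edgeR and DESeq2 did not test them.

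Values are normalised read counts from the deposited table, and recovered totals ran from 462724 to 1269743 miRNA reads per library. The libraries of siC and siIGF2BP1 share a source name in the labels, and those of siIGF2BP2 and siIGF2BP3 share another. This split can be seen in the data: the summed level of 8 miRNAs of the imprinted 14q32 cluster (miR-487b-3p, miR-432-5p, miR-410-3p, miR-409-3p, miR-381-3p, miR-379-5p, miR-134-5p and miR-127-3p) ran from 1053 to 3081 under the first source name and from 3.82 to 12.1 under the second. The 5 stromal miRNAs read as markers summed to 1165 to 2097 and to 447 to 545. Of these, miR-143-3p followed the split, with means of 1222 (siC), 1064 (siIGF2BP1), 10.6 (siIGF2BP2) and 5.29 (siIGF2BP3). miR-199a-5p (419, 480, 387 and 439) and miR-199b-5p (42.9, 78.2, 82.4 and 46.9, in the same order) did not, miR-145-5p had 27 reads in all and miR-214-3p none. The labels do not call it a batch, and for any comparison across it the knockdown and the source name cannot be told apart. Only siIGF2BP1 against siC and siIGF2BP2 against siIGF2BP3 lie within 1 source name. The labels do not say whether replicates are separate cultures; p-values here reflect only how far the sequenced libraries scatter, and that scatter may be technical.

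miR-146a-5p was the member whose level varied most. Its value was 416 and 422 in siC and 577 and 512 in siIGF2BP1. It was 996, 993 and 939 in the siIGF2BP2 libraries and 228, 202 and 201 in the siIGF2BP3 libraries. The order was siIGF2BP3, siC, siIGF2BP1, siIGF2BP2, and no library of one group overlapped another group. Group means were 210 ± 14.9 (SD, n = 3), 419 ± 4.40 (n = 2), 544 ± 45.7 (n = 2) and 976 ± 31.8 (n = 3). The 4 libraries of the siC and siIGF2BP1 source name thus lay between the 2 groups of the other source name. These values rested on 114 to 718 reads per library, with a counting error of 9.37% at the lowest. In siIGF2BP1 the spread between libraries (8.40% of the mean) was larger than counting alone gives (3.95%). It was smaller in siC (1.05% against 5.97%), siIGF2BP2 (3.26% against 4.16%) and siIGF2BP3 (7.10% against 8.27%), so the SDs there understate the error.

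miR-146b-5p, which shares the seed of miR-146a-5p, varied much less. Its value was 205 and 192 in siC, 288 and 276 in siIGF2BP1, 211, 216 and 173 in siIGF2BP2, and 196, 211 and 213 in siIGF2BP3. Only the 2 siIGF2BP1 libraries stood above all others, and the other 3 groups overlapped. Their means were 198 ± 9.11 (SD, n = 2) in siC, 200 ± 23.6 (n = 3) in siIGF2BP2 and 206 ± 9.40 (n = 3) in siIGF2BP3, against 282 ± 8.83 (n = 2) in siIGF2BP1. Reads ran from 98 to 359 per library. The spread between libraries was again below counting error in siC (4.60% against 8.66%), siIGF2BP1 (3.13% against 5.47%) and siIGF2BP3 (4.56% against 8.45%). In siIGF2BP2 it was above it (11.8% against 9.23%).

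miR-155-5p was the most abundant of the 3, at rank 21 of the 1196 detected miRNAs by mean value, against rank 75 for miR-146a-5p and rank 109 for miR-146b-5p. Its value was 6771 and 7547 in siC, and 5699 and 4664 in siIGF2BP1. It was 6074, 6016 and 6663 in siIGF2BP2 and 9950, 9947 and 8633 in siIGF2BP3. The order was siIGF2BP1, siIGF2BP2, siC, siIGF2BP3, with means of 5182 ± 732 (SD, n = 2), 6251 ± 358 (n = 3), 7159 ± 549 (n = 2) and 9510 ± 760 (n = 3). No 2 groups overlapped, although the highest siIGF2BP2 library (6663) lay close to the lower siC library (6771). With 3151 to 8407 reads per library, counting error was at most 1.78%, which is below the spread between libraries of a group (5.73% to 14.1% of the mean).

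**Figure D1:**
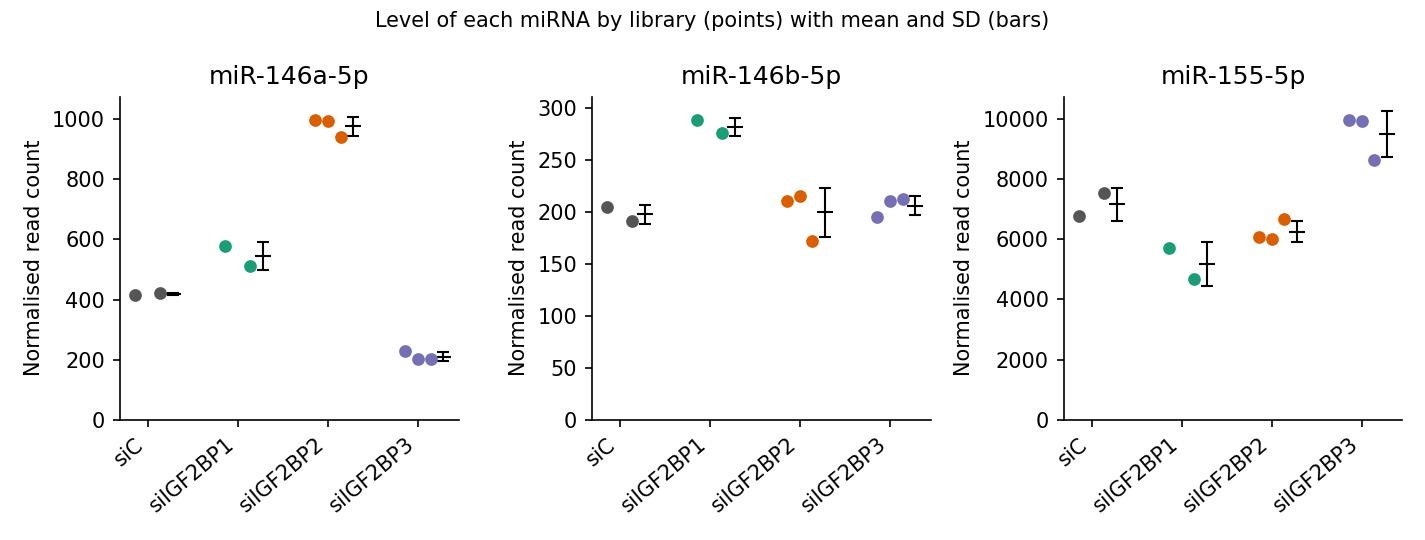
Normalised read count (vertical axis, linear from 0) of miR-146a-5p, miR-146b-5p and miR-155-5p in each library (points) by siRNA group (horizontal axis), with the group mean and SD as bars. miR-146a-5p separates all 4 groups, from about 201 to 228 in siIGF2BP3 to 939 to 996 in siIGF2BP2, miR-146b-5p stands out only in siIGF2BP1 (276 and 288), and miR-155-5p is highest in siIGF2BP3 (8633 to 9950).

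The siIGF2BP2 and siIGF2BP3 libraries held very different levels of miR-146a-5p. It was 4.63-fold higher in siIGF2BP2 than in siIGF2BP3 (95% interval 3.91 to 5.49), while miR-155-5p was 1.52-fold higher in siIGF2BP3 and the values of miR-146b-5p overlapped. In bulk libraries a change of level in all cells and a change in the share of cells that carry a miRNA cannot be told apart. The log2 fold change of miR-146a-5p, siIGF2BP2 less siIGF2BP3 on the log2(value + 1) scale, was 2.21 ± 0.11 (SE). It is given without a test, and all 3 siIGF2BP2 libraries lay above all 3 siIGF2BP3 libraries. Among the 313 miRNAs with a mean value of at least 10 it was the largest fold change in this comparison. For miR-155-5p the log2 fold change was -0.60 ± 0.10 (limma adjusted p = 0.00556), again with no overlap. For miR-146b-5p it was -0.05 ± 0.14 (limma adjusted p = 1), with a 95% interval from -0.35 to 0.24, or 0.785-fold to 1.18-fold. In this comparison 3.15% of the 889 miRNAs tested passed at an adjusted p under 0.05, in either direction. Of the members given with a test here, miR-155-5p passed and miR-146b-5p did not. When only the 313 miRNAs with a mean of at least 10 were tested, 21 passed as higher and 19 as lower. The groups did not overlap for 15.3% of the 889. Both groups have 3 libraries and 1 source name. The siIGF2BP2 libraries also took part in the comparison that drew attention to miR-146a-5p, so a test of it here would not be independent of the choice of members.

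**Figure D2:**
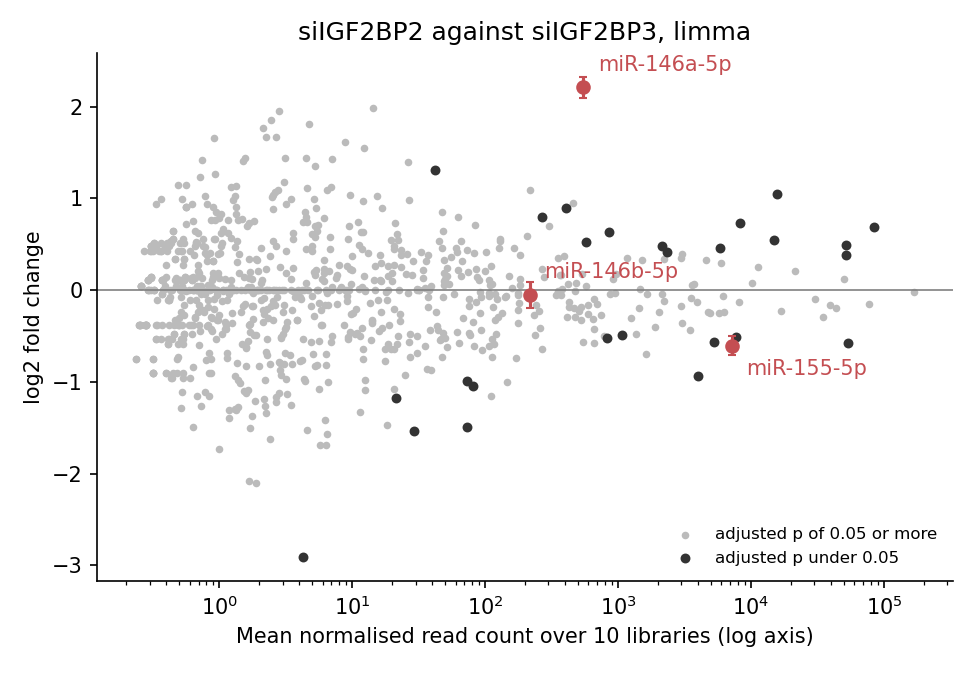
Log2 fold change of siIGF2BP2 against siIGF2BP3 (vertical axis) against the mean normalised read count over the 10 libraries (horizontal axis, log scale) for the 889 miRNAs tested; dark points have a limma adjusted p under 0.05, and red points with SE bars are the 3 members. miR-146a-5p lies at 2.21, above all other points, miR-146b-5p at -0.05 and miR-155-5p at -0.60.

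Against the control, the 2 knockdowns lay on opposite sides for miR-146a-5p. In siIGF2BP3 it was 1.99-fold lower than in siC (log2 fold change -0.99 ± 0.13, SE; limma adjusted p = 0.000153), and each of the 3 siIGF2BP3 libraries was below both siC libraries. In siIGF2BP2 its log2 fold change was 1.22 ± 0.13, or 2.33-fold, given without a test. miR-155-5p rose 1.33-fold in siIGF2BP3 (log2 fold change 0.41 ± 0.11; limma adjusted p = 0.0379), and its log2 fold change in siIGF2BP2 was -0.20 ± 0.11, which turned to 0.29 when the libraries were rescaled by their upper quartile. For miR-146b-5p the values were 0.06 ± 0.15 in siIGF2BP3 (limma adjusted p = 0.863), with a 95% interval from -0.27 to 0.39 and a sign that turned under 2 other scalings, and 0.01 ± 0.15 in siIGF2BP2. Of all miRNAs tested, 10.6% passed for siIGF2BP3 against siC, where 2 of the 3 members did (the groups did not overlap for 29.4% of miRNAs), and 9.00% for siIGF2BP2 against siC. Both comparisons share the siC libraries and cross the 2 source names. When only the 313 miRNAs with a mean of at least 10 were tested, 23 passed as higher and 40 as lower for siIGF2BP3 against siC.

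Scaling bears on these values. The upper quartile moved the median log2 fold change of the 313 miRNAs with a mean of at least 10 from 0.08 to 0.67 for siIGF2BP3 against siC. The fall of miR-146a-5p was then -0.40 (limma adjusted p = 0.123); relative to the median of those miRNAs it was -1.07 under both scalings. miR-155-5p lost its call for siIGF2BP3 under 10 of 16 alternatives, with adjusted p up to 0.266 without siC C2; the count test, edgeR's quasi-likelihood test on recovered reads, gave 0.30 (adjusted p = 0.106), at a background of 19.1% of 335 miRNAs. The authors' deposited table gives log2 fold changes of -1.0 for miR-146a-5p (false discovery rate 2.87e-09) and 0.41 for miR-155-5p (0.0809) in siIGF2BP3.

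After IGF2BP1 knockdown both members of the miR-146 pair were measured higher and miR-155-5p lower than in siC, and 0 of the 3 passed the limma test after adjustment, while 3 of 3 had an unadjusted p under 0.05. The fold changes were 1.30 for miR-146a-5p (log2 0.38 ± 0.14, SE; limma adjusted p = 0.192), 1.42 for miR-146b-5p (0.51 ± 0.17; limma adjusted p = 0.138) and 0.721 for miR-155-5p (-0.47 ± 0.12; limma adjusted p = 0.0743). In each case the 2 siIGF2BP1 libraries did not overlap the 2 siC libraries, which share their source name, but the same held for 35.0% of all 889 miRNAs tested. At an adjusted p under 0.05, 2.47% of the miRNAs tested passed in this comparison. When only the 313 miRNAs with a mean of at least 10 were tested, 41 passed as higher and 11 as lower. With that filter miR-155-5p (limma adjusted p = 0.0304) and miR-146b-5p (0.0467) passed, and miR-146a-5p did not (0.0586). The value of miR-155-5p passed under 6 of 15 alternatives, among them DESeq2 and edgeR's quasi-likelihood test on recovered reads (log2 fold change -0.72; adjusted p = 0.00635), where 12.5% of 335 miRNAs and 1 of the 3 members passed. The authors' deposited table gives it a log2 fold change of -0.47 with a false discovery rate of 0.123.

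The siIGF2BP1 libraries were also set against the other 2 knockdowns, comparisons that cross the source names. miR-146a-5p was 2.58-fold higher in siIGF2BP1 than in siIGF2BP3 (log2 fold change 1.37 ± 0.13, SE, limma adjusted p = 8.61e-06). The fold change uses neither the siC nor the siIGF2BP2 libraries, but its SE and p draw on the spread within all 4 groups. The log2 fold change of miR-146a-5p for siIGF2BP1 against siIGF2BP2 was -0.84 ± 0.13. It is given without a test because the level of miR-146a-5p in the siIGF2BP2 libraries was known when the members were chosen. miR-155-5p was 1.84-fold lower in siIGF2BP1 than in siIGF2BP3 (-0.88 ± 0.11; limma adjusted p = 0.000109) and had a log2 fold change of -0.28 ± 0.11 against siIGF2BP2 (limma adjusted p = 0.160). miR-146b-5p was 1.42-fold higher in siIGF2BP1 than in siIGF2BP2 (0.50 ± 0.15; limma adjusted p = 0.0465), a difference that turned to -0.19 under upper quartile scaling and lost its call under 12 of 15 alternatives. Against siIGF2BP3 its log2 fold change was 0.45 ± 0.15 (limma adjusted p = 0.0700). The share of miRNAs tested that passed was 13.5% against siIGF2BP2 and 14.8% against siIGF2BP3. It was larger among abundant miRNAs. When only the 313 miRNAs with a mean of at least 10 were tested, 77 passed as higher and 19 as lower against siIGF2BP2. Against siIGF2BP3, 74 passed as higher and 29 as lower.

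Because miR-146a-5p and miR-146b-5p share a seed, their sum and their ratio within a library were followed as well; the ratio does not depend on how a library is scaled, but it is a ratio of reads, and different miRNAs are not captured with equal efficiency. miR-146a-5p exceeded miR-146b-5p by 2.03- and 2.2-fold in siC and by 2.0- and 1.86-fold in siIGF2BP1. The ratio was 4.72, 4.60 and 5.44 in siIGF2BP2, and 1.16, 0.961 and 0.944 in siIGF2BP3. All siIGF2BP2 libraries thus lay above, and all siIGF2BP3 libraries below, the 4 libraries of the other source name. miR-146a-5p made up 67.9% ± 1.23 (SD, n = 2) of the pair's sum in siC, 65.8% ± 1.19 (n = 2) in siIGF2BP1, 83.1% ± 1.25 (n = 3) in siIGF2BP2 and 50.4% ± 2.89 (n = 3) in siIGF2BP3. The mean log2 ratio was 2.27 higher in siIGF2BP2 than in siIGF2BP3 (two-sided exact permutation p = 0.1, the smallest that 3 against 3 libraries can give). The difference was -1.05 for siIGF2BP3 less siC (exact permutation p = 0.2, the smallest possible) and -0.13 for siIGF2BP1 less siC (exact permutation p = 0.333, the smallest possible). None of these 3 designs can reach 0.05.

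The summed level of the seed pair was 617 ± 4.72 (SD, n = 2) in siC, 827 ± 54.5 (n = 2) in siIGF2BP1, 1176 ± 55.3 (n = 3) in siIGF2BP2 and 417 ± 5.61 (n = 3) in siIGF2BP3. For each read of the pair there were 22.8 ± 1.72 reads of miR-155-5p in siIGF2BP3 (n = 3), against 11.6 ± 0.979 in siC (n = 2), 6.25 ± 0.473 in siIGF2BP1 (n = 2) and 5.33 ± 0.570 in siIGF2BP2 (n = 3). The siIGF2BP3 libraries were thus those with the lowest sum of the pair and the most miR-155-5p. miR-146b-5p alone was not lowest there (206, against 198 in siC and 200 in siIGF2BP2). The ratio of miR-155-5p to the pair did not overlap between siIGF2BP3 (20.9 to 24.1) and any other group. For single miRNAs, siIGF2BP3 did not overlap siC for 29.4% of those tested, nor siIGF2BP2 for 15.3%.

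**Figure D3:**
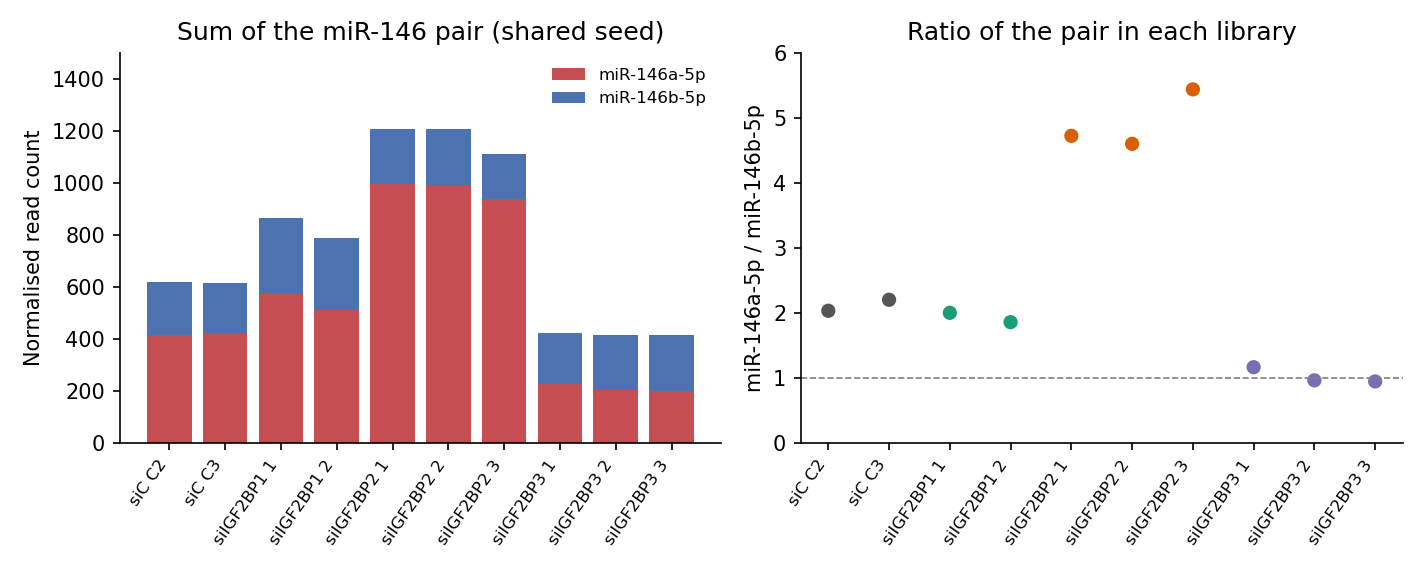
Left, normalised read counts of miR-146a-5p (red) and miR-146b-5p (blue) stacked for each library; right, their ratio in each library, with a dashed line at 1. The sum runs from 413 in siIGF2BP3 to 1209 in siIGF2BP2, and the ratio is highest in the 3 siIGF2BP2 libraries (4.60 to 5.44) and lowest in the 3 siIGF2BP3 libraries (0.944 to 1.16).

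Other miRNAs reported to respond to NF-kB or to cytokines, a list of 17 of which 16 were tested, had members that moved in both directions. For siIGF2BP3 against siC, miR-222-3p, a repressor of the CDK inhibitor CDKN1B, rose (log2 fold change 0.53; limma adjusted p = 0.000833), as did miR-31-5p (0.69; limma adjusted p = 0.000451), and miR-21-5p, an abundant miRNA of many tumours, fell (-0.53; limma adjusted p = 0.00104), a value of 0.0720 under upper quartile scaling. These were 3 of 16, beside 10.6% of all miRNAs tested, and the list's median was -0.06 against 0. For siIGF2BP2 against siIGF2BP3, miR-21-5p (0.68) and miR-125a-5p (0.41) were higher in siIGF2BP2 and miR-222-3p (-0.58) and miR-31-5p (-0.93) were lower. That is 4 of 16 in all, beside 3.15% of all miRNAs tested, with a median of 0.06 against 0. Among abundant miRNAs the share was larger: with a mean of at least 10, 21 of 313 passed as higher and 19 as lower. For siIGF2BP3 against siC, 23 of 313 passed as higher and 40 as lower, and for siIGF2BP1 against siC 41 as higher and 11 as lower. For siIGF2BP1 against siC only miR-132-3p, a miRNA induced through CREB as well, rose (log2 fold change 1.47; limma adjusted p = 0.0228), 1 of 16 beside 2.47% of all, and this call was lost without siC C2 (adjusted p = 0.183) and without either siIGF2BP1 library (0.132 and 0.163).

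A second list held 11 miRNAs that are reported to repress mRNAs of the NF-kB pathway, of which 10 were tested. For siIGF2BP3 against siC, miR-181a-5p (log2 fold change -0.80; limma adjusted p = 0.000596) and its relative miR-181b-5p (-0.66; limma adjusted p = 0.000808), which represses the importin KPNA4, fell, and so did miR-126-3p, an endothelial miRNA (-3.63; limma adjusted p = 0.00136). miR-138-5p rose (0.50; limma adjusted p = 0.0277). These were 4 of 10, beside 10.6% of all miRNAs tested, and the list's median was -0.12 against 0. Under upper quartile scaling miR-181a-5p was at -0.20 (limma adjusted p = 0.429) and miR-181b-5p at -0.0594 (limma adjusted p = 0.835). miR-181a-5p (1.05) and miR-181b-5p (0.73) were also higher in siIGF2BP2 than in siIGF2BP3, 2 of 10 beside 3.15% of all. The larger shares among abundant miRNAs given above apply to this list as well. For siIGF2BP1 against siC 0 of 10 passed with limma beside 2.47% of all (1 had an unadjusted p under 0.05), 1 of 9 with edgeR beside 12.5% (miR-30a-3p) and 0 of 9 with DESeq2. miR-126-3p averaged 24.8 and 29.9 in siC and siIGF2BP1 and 2.73 and 1.06 in siIGF2BP2 and siIGF2BP3, the same split by source name as the 14q32 cluster. The calls of miR-138-5p and of miR-125a-5p were lost without single libraries (miR-138-5p without siC C2 or siIGF2BP3 replicate 1; miR-125a-5p without any 1 of the 6), and both lists were drawn up with earlier results of these data known.

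Because miR-146a and miR-155 are abundant in blood cells, markers of other cell types were read in the same libraries. The summed level of 7 haematopoietic miRNAs was 577 to 1156 in siC, 447 to 636 in siIGF2BP1, 434 to 605 in siIGF2BP2 and 537 to 1490 in siIGF2BP3. Of these, miR-486-5p was at 0 in all 10 libraries, and miR-223-3p and miR-144-3p, which mark myeloid and red cells, were at 0 in all siIGF2BP2 and siIGF2BP3 libraries. miR-451a, of red cells, was at 67.6 and 660 in the 2 siC libraries, at 7.23 and 213 in siIGF2BP1, and at most 1.91 in siIGF2BP2 and 2.38 in siIGF2BP3. miR-142-5p averaged 424, 397, 489 and 793 ± 451 (SD, n = 3) in siC, siIGF2BP1, siIGF2BP2 and siIGF2BP3. In the same order miR-142-3p averaged 35.6, 20.7, 38.9 and 82.9 ± 78.7. Without the siIGF2BP3 library with the highest sum (replicate 3), the siIGF2BP2 to siIGF2BP3 log2 fold change was 2.18 for miR-146a-5p and -0.67 for miR-155-5p. Blood cells as a cause of the differences were not tested. The 6 epithelial miRNAs (the miR-200 family and miR-205-5p) summed to at most 11.5 in any library; miR-141-3p, miR-200c-3p and miR-200b-3p had 15, 12 and 6 reads in all 10 libraries.

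The miRNAs whose levels followed each member most closely were found from the root mean square difference of log2(value + 1), each centred on its own mean, over the 10 libraries and among 312 other miRNAs with a mean value of at least 10. These are descriptions, since the profiles share libraries and scaling. No miRNA followed miR-146a-5p closely: the nearest, miR-181a-5p, differed from it by 0.50, against 0.96 for the median miRNA and a spread of miR-146a-5p itself of 0.87. miR-181a-5p averaged 16206, 19044, 19337 and 9311 in siC, siIGF2BP1, siIGF2BP2 and siIGF2BP3. The next were miR-425-3p (0.59), miR-877-5p (0.59), miR-199b-5p (0.60) and miR-935 (0.60). Nearest to miR-146b-5p were miR-152-3p (0.13), miR-22-3p (0.14), miR-151a-3p (0.14), miR-92a-1-5p (0.14) and let-7b-5p (0.14), against 0.41 for the median miRNA and its own spread of 0.21.

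miR-155-5p had closer neighbours. miR-532-5p differed from it by 0.11, miR-182-5p by 0.14, miR-183-5p by 0.15, miR-125b-1-3p by 0.17 and miR-31-5p by 0.19, against 0.52 for the median miRNA and its own spread of 0.34. miR-182-5p and miR-183-5p come from 1 cluster and averaged 7949 and 1226 in siC, 5387 and 769 in siIGF2BP1, 6989 and 926 in siIGF2BP2, and 9999 and 1294 in siIGF2BP3. Like miR-155-5p, both had their lowest mean in siIGF2BP1 and their highest in siIGF2BP3.

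**Figure D4:**
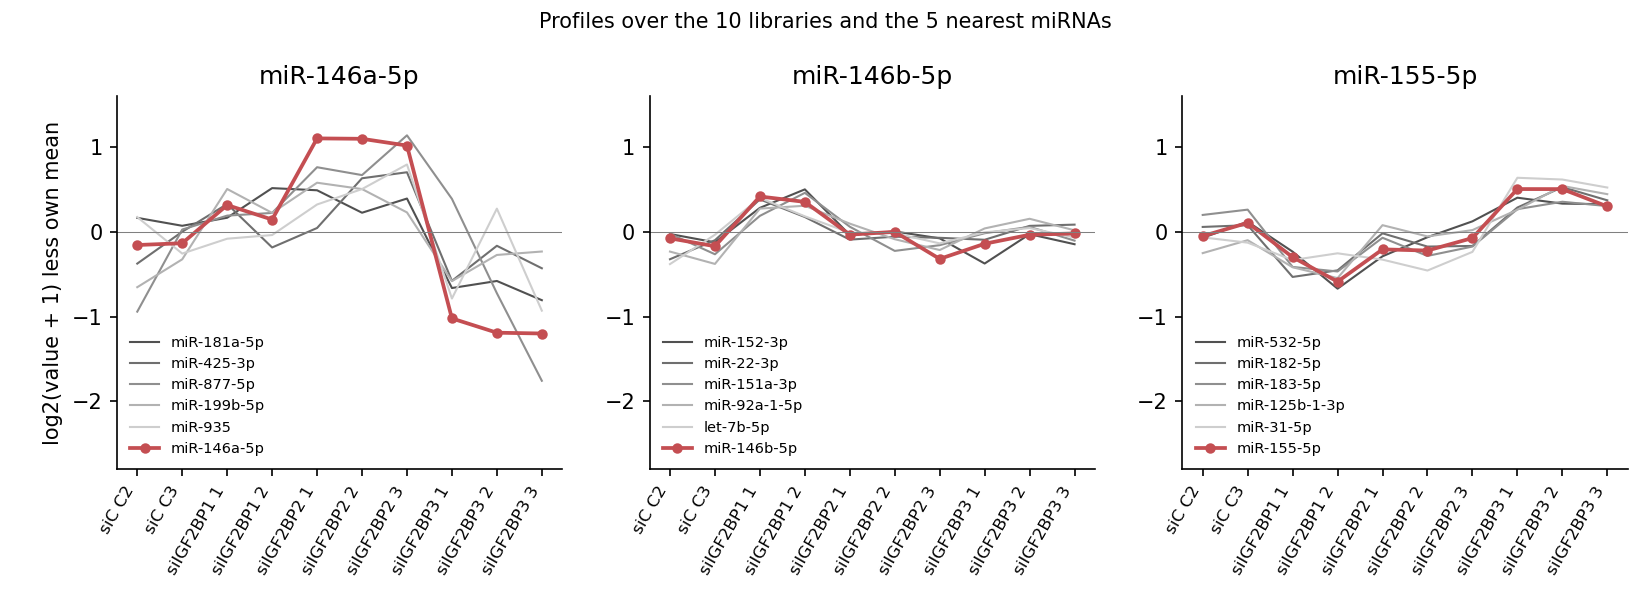
Level of each member (red) and of its 5 nearest miRNAs (grey) in the 10 libraries (horizontal axis), as log2(value + 1) less the miRNA's own mean (vertical axis). miR-155-5p is followed within 0.11 to 0.19 (root mean square) by its neighbours, while miR-146a-5p differs from its 5 nearest by 0.50 to 0.60.

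The start of the miR-146a host gene carries a binding motif of NF-kB. In the RefSeq window from 250 bases before to 50 bases after the annotated start of MIR3142HG (GRCh38.p14, plus strand), the 10 bases GGGACTTTCC, a standard kappaB site, occur 1 time, 120 bases before the start. They are shown in capitals within 50 bases at chr5:160468111-160468160.
MIR3142HG promoter: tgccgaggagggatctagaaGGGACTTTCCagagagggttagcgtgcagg
The same 10 bases, searched on both strands, occur in 67 of 35116 such windows (0.191%), and the wider kappaB consensus, which includes them, occurs in 3956 (11.3%). Neither was found in the window of MIR155HG. GENCODE 29 places the start of MIR3142HG further upstream, at 160438594, so the window belongs to the RefSeq start. A match describes these letters only; no binding was measured here.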

How the data were processed

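Small RNA libraries (Illumina TruSeq) were measured for 10 samples in 4 groups. Tools named in the submitters' processing notes are edgeR 3.12, featureCounts 1.4.6, Bowtie2 2.2.4 and cutadapt 1.6, with build hg19; settings and scaling method are not stated there. The deposited values are a normalised signal made by the authors. Whole reads were recovered from 100% of values (tolerance 0.01 of a read; 1 read was worth 0.803 to 2.0). The authors' deposited table also holds log2 fold changes, p-values and false discovery rates, used only where it is named. The 2794 rows were summed to 2576 mature miRNAs, and 0 columns of other samples were left unused. The labels do not tell which control column is which control sample; the names siC C2 and siC C3 follow the columns. Libraries of a group differed beyond counting noise (6.80 to 38.7 chi-square units per degree of freedom).

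The test was limma 3.58.1 (R 4.3.3) with an intensity trend on log2(value + 1), for the 889 miRNAs that reached a value of 1 in 2 or more libraries, all groups in 1 fit, Benjamini-Hochberg at 0.05; it was tested on simulated data. The pseudocount shrinks the fold changes of low miRNAs. Alternatives were pseudocounts of 0.1 and 5, 4 scalings, 2 filters, 2 groups only, edgeR 4.0.16 and DESeq2 1.42.0 on recovered reads, and leaving out each library. Ratios were compared with exact permutation tests (scipy 1.17.1). Counting errors cover counting only. The members and lists were chosen with earlier results of these data known. Named miRNAs are the members, their 3p arms, miRNAs of the same seed, list members past the test or the 3 most abundant, and the 5 nearest in profile.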

Additional observations from a re-analysis of the deposited data

Results flagged for a closer look

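Differences between 2 knockdowns, each against the same control, were looked for by the limma test of the difference itself. For miR-146a-5p siIGF2BP1 and siIGF2BP3 differed by 1.37 on the log2 scale (adjusted p = 8.61e-06). Its differences of 2.21 between siIGF2BP2 and siIGF2BP3 and of -0.84 between siIGF2BP1 and siIGF2BP2 rest on the siIGF2BP2 libraries, whose high level of miR-146a-5p was known when the members were chosen, and are values rather than independent tests. For miR-155-5p siIGF2BP2 and siIGF2BP3 differed by -0.60 (adjusted p = 0.00556) and siIGF2BP1 and siIGF2BP3 by -0.88 (adjusted p = 0.000109). For miR-146b-5p siIGF2BP1 and siIGF2BP2 differed by 0.50 (limma adjusted p = 0.0465). This value turned to -0.19 under upper quartile scaling and lost its call with edgeR (0.30) and DESeq2 (0.35). The differences that involve siIGF2BP1 cross the 2 source names of the labels, from which the knockdown cannot be told apart.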

How the results depend on the processing

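The log2 fold change of miR-146a-5p between siIGF2BP2 and siIGF2BP3 was 2.10 to 2.27 under all 19 alternatives. The level of miR-146a-5p in the siIGF2BP2 libraries was known when the members were chosen, so no test is given. The difference of miR-146a-5p between siIGF2BP1 and siIGF2BP3 was 0.56 to 1.45 under all 15 alternatives. The cause of the changes below was not tested. For siIGF2BP1 against siC, miR-155-5p passed after rescaling by TMM (-0.68), the median of ratios (-0.70) or the library total (-0.54), with the filter of a mean of at least 10 (-0.47), with edgeR (-0.72) and with DESeq2 (-0.68), and miR-146b-5p passed with that filter (0.51, adjusted p = 0.0467), where fewer miRNAs are tested.

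For siIGF2BP2 against siC, miR-146a-5p moved to 1.10 under TMM and 1.70 under the upper quartile, miR-146b-5p to -0.12 and 0.48, and miR-155-5p turned to 0.29 under the upper quartile. For siIGF2BP3 against siC, miR-146a-5p was -0.40 under the upper quartile (adjusted p = 0.123). miR-146b-5p turned to -0.0221 under TMM, -0.0485 under the median of ratios, -0.0492 with edgeR and -0.0300 with DESeq2, and passed at 0.65 under the upper quartile (adjusted p = 0.0203). miR-155-5p lost its call under TMM (0.33), the median of ratios (0.30), no filter (0.41, adjusted p = 0.0532), the 2 groups alone (0.41, adjusted p = 0.103), edgeR (0.30) and DESeq2 (0.32, adjusted p = 0.0509); leaving out 1 library at a time gave 0.33 (without siC C2) to 0.49 (without siC C3), and only without siIGF2BP3 replicate 3 did it pass. A lone siC library was assumed to vary like the other groups.

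For siIGF2BP2 against siIGF2BP3, leaving out 1 library at a time gave -0.112 to 0.0483 for miR-146b-5p, the latter without siIGF2BP2 replicate 3. With a replicate block the value of miR-155-5p was -0.60 (limma adjusted p = 0.0892) and that of miR-146a-5p 2.21. With the block 5 miRNAs passed as higher and 2 as lower. Without it, in a fit of the same libraries added after seeing the data, 11 and 9 did. The replicate numbers share no more than a number: the deviations of same-numbered libraries correlated at -0.12, -0.16 and -0.04. Other knockdown comparisons, also added later, turned for miR-146b-5p under the upper quartile, to -0.19 for siIGF2BP1 against siIGF2BP2 and -0.36 against siIGF2BP3. Of 241 values of the 14 calls among the list miRNAs, 26 lost the call and 1 turned, miR-21-5p for siIGF2BP3 against siC (0.0720 under the upper quartile). No paired analysis was possible for the comparisons with siC, because the control columns carry no replicate number. Depth limits miR-146b-5p most, at 98 reads in its shallowest library.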
